A study of Homo sapiens with 12 samples.

Results

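The 10 genes described here are TGFB1, TGFB2, TGFB3, BMP2, BMP4, BMP6, GDF5, GDF15 and INHBA, which encode ligands of the TGF-beta superfamily, and LTBP2, a matrix protein named for its likeness to the binding proteins of latent TGF-beta. They were taken by symbol from a deposited table of 57773 genes, and all 10 were found. RNA came from U87-MG, an established human glioblastoma cell line, as the parental line and as a line with acquired resistance to JQ1. Both lines were cultured in DMEM with fetal bovine serum and exposed for 24 h to DMSO (the solvent), 1000 nM JQ1 or 1000 nM dBET6. BET proteins read acetylated histones and help to drive transcription. JQ1 blocks their bromodomains, whereas dBET6 carries a related ligand linked to a cereblon binder and leads to their degradation. Each of the 6 groups had 2 libraries of polyA RNA, which makes 12. The labels do not say how the resistant line was derived, whether it is a clone, or whether the replicates come from different cultures; p-values hence reflect the spread among these libraries alone, which may be technical.

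Ligands of this superfamily are secreted dimers cut from larger precursors. TGF-beta dimers are held in a latent complex with their own propeptide and a latent TGF-beta binding protein until integrins or proteases release them. Type II receptors bind the active ligand and phosphorylate type I receptors, which in turn phosphorylate SMAD proteins. These are SMAD2 and SMAD3 after TGF-beta and activin, and SMAD1, SMAD5 and SMAD9 after BMPs and some GDFs. In glioblastoma TGF-beta is known for its links to invasion, mesenchymal traits and suppression of immune cells, and BMPs for inducing astrocytic traits in stem-like cells. GDF15 is a distant relative known as a secreted marker of cell stress that p53 and ATF4 can induce.

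Estimated counts per library ran from 24732177 to 40388589. Markers of mesenchymal glioma were high in all 12 libraries (7 of 7 genes with a mean deposited FPKM above 1, summed FPKM 6924 to 11380 in DMSO and JQ1 and 18510 to 35730 in dBET6). Those of glioma and neural cells were low: 3 of 11 genes had a mean above 1 (summed FPKM 12.96 to 21.35 and 19.28 to 30.49). The astrocyte marker GFAP lay between 1.58 and 6.39 FPKM, and AQP4, OLIG2 and PROM1 reached at most 0.419, 0.706 and 0.237. SOX2 stood at 0.0236 FPKM or less in DMSO and JQ1 libraries, at 1.66 and 1.58 in parental dBET6 and at 0.297 and 0.524 in resistant dBET6. For endothelial markers 1 of 4 and for epithelial markers 1 of 5 had a mean above 1, and each list summed to at most 7.07 FPKM. Immune markers (3 of 7 with a mean above 1) summed to 1.09 to 13.7 FPKM in DMSO and JQ1 and to 19.3 to 25.6 in dBET6. These 3 were ITGAM, CD14 and CSF1R. By group mean ITGAM stood at 0.0897 FPKM or less in DMSO and JQ1 and at 5.94 (parental) and 6.40 (resistant) in dBET6. CD14 stood at 0.205 or less and at 5.15 and 1.66. CSF1R stood at 6.99 and 13.45 in DMSO, 0.889 and 2.71 in JQ1, and 9.62 and 14.25 in dBET6. The pan-leukocyte gene PTPRC was at 0.238 FPKM or less throughout. The part of immune markers in the results was not tested. In the 4 dBET6 libraries mitochondrially encoded mRNA made up 3.02% to 3.75% of counts, against 1.4% to 2.59% in the other 8, and the top 50 genes made up 25.8% to 31%, against 12.4% to 18.5%. The deposited FPKM columns summed to 1711000 to 2298000 in these 4 libraries, against 649800 to 812200 in the other 8. FPKM compared between dBET6 and other libraries, the marker sums included, carries this difference in scale.

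Levels below are CPM (counts scaled to a common library size) after TMM scaling, or deposited FPKM where genes are compared with each other, since only FPKM is per transcript length. Fold changes are edgeR log2 fold changes ± SE with a Benjamini-Hochberg adjusted p over 19093 genes, and "called" means an adjusted p under 0.05. The SE was worked back from the test, as the size of the fold change divided by the square root of its F value. The intervals of fold changes rest on this SE. Where a group holds few counts, it can be smaller than counting error alone. TMM scaling centres the fold changes on the majority of genes. When total counts set the scale, the median fold change over all genes shifted by -0.65 (log2) for dBET6 in parental cells and -1.14 in resistant cells, and with mitochondrially encoded mRNA as the scale by -1.78 and -2.12. The same shifts with JQ1 were -0.10 and -0.28 (parental) and -0.17 and -0.56 (resistant), and between the lines in DMSO 0.07 and -0.23. A rise with dBET6 below these sizes is therefore a rise relative to other genes, and each member whose direction turned is named with its values.

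TGFB1 had the highest mean level of the 10 members by FPKM (174.2 over the 12 libraries, against 1.67 for TGFB2 and 2.18 for TGFB3). In parental DMSO cells the order by mean FPKM was TGFB1 (79.7), GDF5 (19.0), GDF15 (12.9), LTBP2 (6.47), BMP2 (3.48), TGFB3 (2.62), TGFB2 (2.09), BMP6 (0.136), INHBA (0.057) and BMP4 (0.00745). In resistant dBET6 cells GDF15 stood second at 69.1 FPKM and GDF5 had dropped to 0.830. The order of the members thus differed between groups. BMP4 did not pass the filter on low counts and was not tested, so 9 of the 10 members entered the tests.

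**Figure D1:**
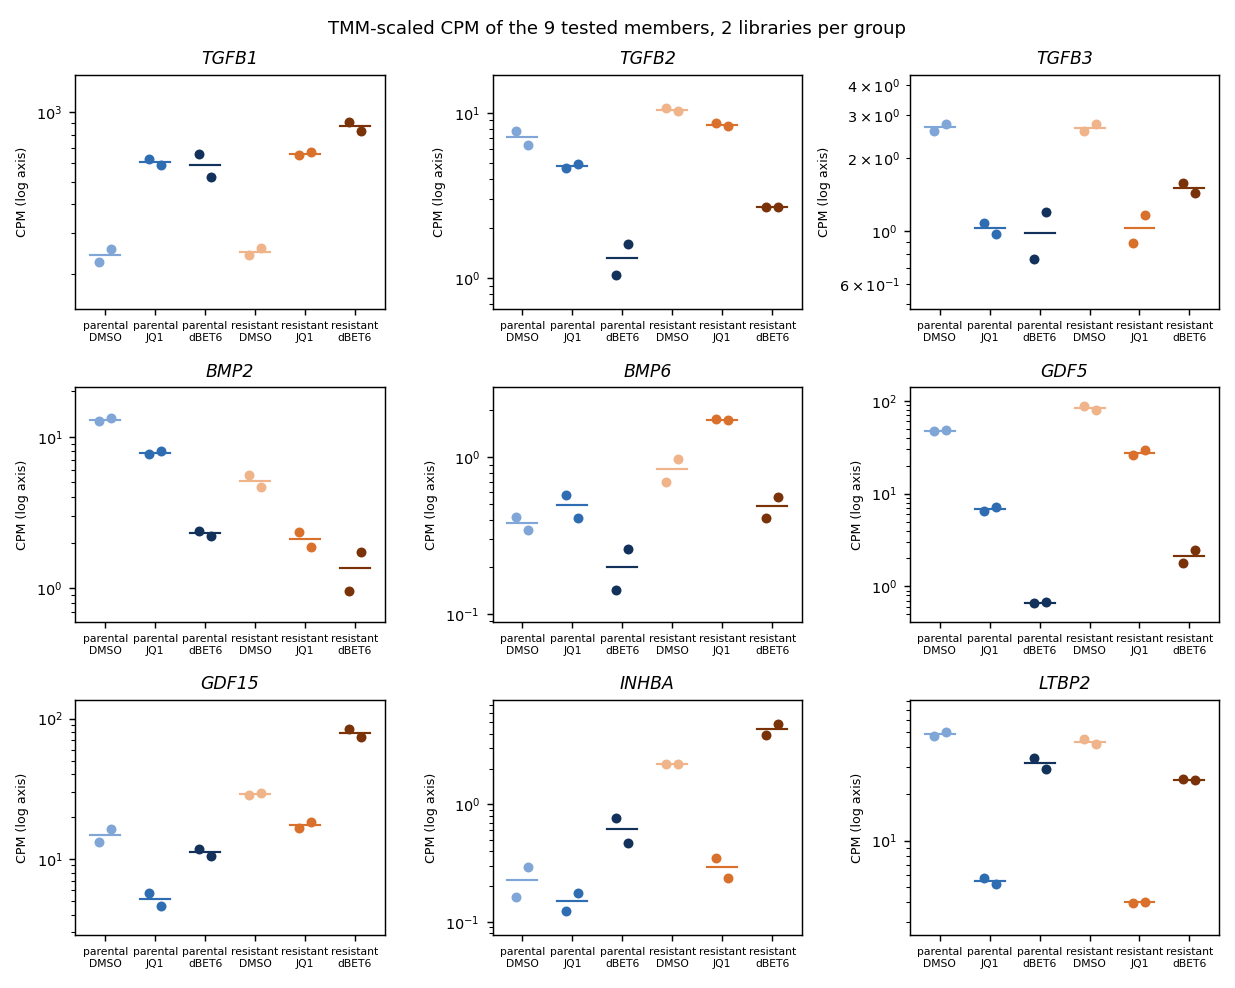
TMM-scaled CPM of the 9 tested members in each of the 12 libraries, on log axes whose range differs between panels. Points are libraries and lines are the means of 2. On this scale TGFB1 is higher with either compound (not with mitochondrial scaling for dBET6), GDF5 falls from DMSO over JQ1 to dBET6 in both lines, and LTBP2 is lowest in the JQ1 libraries.

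Counted over the 9 tested members, JQ1 raised 1 and lowered 6 in parental cells (percent of all genes called: 48.9, with 22.8 higher and 26.1 lower) and raised 2 and lowered 6 in resistant cells (43.9, with 20.8 and 23.1). Their median log2 fold change was -0.73 in parental and -1.28 in resistant cells, beside 0.01 over all genes in each. dBET6 raised 2 and lowered 6 in parental cells (76.3% of all genes called, 37 higher and 39.3 lower) and raised 3 and lowered 5 in resistant cells (75.2%, with 35.7 and 39.5). The medians were -0.92 and -0.81, beside -0.01 and -0.06 over all genes. With dBET6 8 of the 9 members were called in each line, against a background in which most genes were called. With scaling to mitochondrially encoded mRNA the dBET6 counts became 0 higher and 8 lower in each line, and with total counts 1 and 7 in parental and 2 and 6 in resistant cells.

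**Figure D2:**
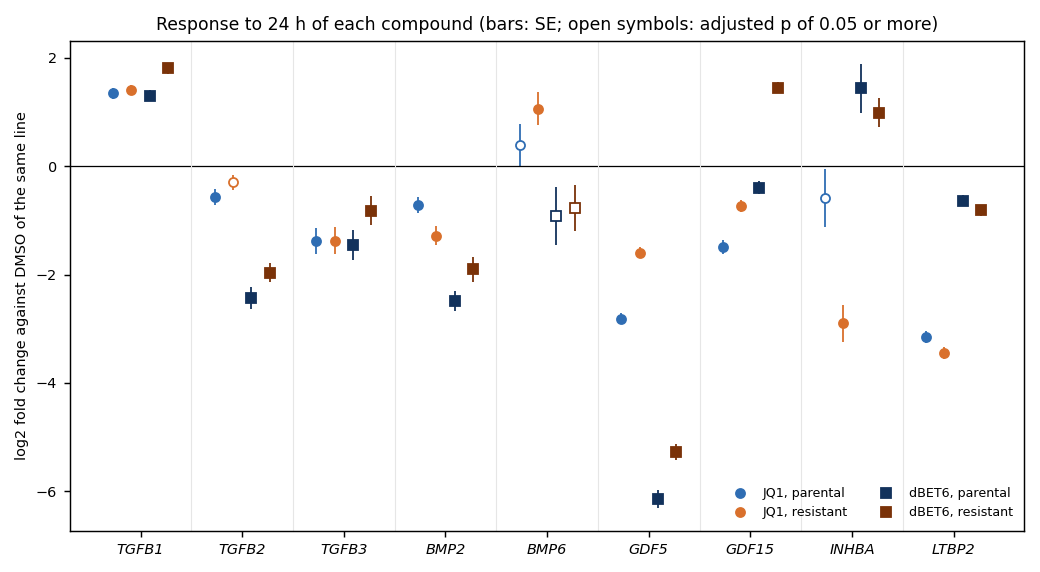
Log2 fold change against DMSO of the same line for each tested member, with SE as bars, for both compounds (symbol shape) and both lines (colour). Open symbols did not pass the adjusted p of 0.05. With TMM scaling TGFB1 lies above 0 in all 4 comparisons (with mitochondrial scaling it is at -0.49 and -0.26 for dBET6), and TGFB2, TGFB3, BMP2, GDF5 and LTBP2 lie below 0 in all 4.

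TGFB1, the isoform most widely expressed in tissues and cultured cells, was the one tested member called higher with either compound in both lines with TMM scaling. It stood at 225.2 and 255.8 CPM in parental DMSO, 627.1 and 592.9 in parental JQ1, and 656.2 and 523.8 in parental dBET6. In the resistant line it stood at 239.9 and 258.4 in DMSO, 649.5 and 669.7 in JQ1, and 909.6 and 825.9 in dBET6. All 8 treated libraries lay above all 4 DMSO libraries. The log2 fold change with JQ1 was 1.34 ± 0.10 in parental (adjusted p = 1.14e-11) and 1.40 ± 0.10 in resistant cells (6.86e-12), called under each alternative setting tried. With dBET6 it was 1.29 ± 0.10 (adjusted p = 3.51e-12) and 1.80 ± 0.10 (3.22e-15). The dBET6 rise is a rise against other genes: it turned to -0.49 and -0.26 with mitochondrial scaling and to -0.11 and -0.06 in limma on log2 (TPM + 1), on which scale a fold change understates that of low genes. The lines did not differ detectably in DMSO (0.05, 95% interval -0.15 to 0.25). The response to dBET6 was larger in resistant cells by 0.51 ± 0.14 (adjusted p = 0.00691), but by only 0.07 with total counts and 0.23 with mitochondrial scaling, neither called, nor was it in limma on log2 (TPM + 1) (0.05) or unfiltered limma (0.51). TGFB1 lies on the minus strand of chromosome 19 (GRCh38, 41301587 to 41353911), and its span overlaps those of CCDC97, HNRNPUL1 and TMEM91 on the other strand. Only reads from exon sequence shared with them could be given to the wrong gene, and such sharing was not examined. Of its counts, 99.7% went to the transcript TGFB1-201.

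TGFB2 and TGFB3, the other two TGF-beta isoforms, moved the opposite way. TGFB2 stood at 7.80 and 6.41 CPM in parental DMSO, 4.64 and 4.93 in JQ1 and 1.05 and 1.61 in dBET6, and at 10.6 and 10.3, 8.62 and 8.36, and 2.68 and 2.68 in the same order in resistant cells. None of the 6 groups overlapped another. The fall with dBET6 was -2.43 ± 0.20 in parental (adjusted p = 1.19e-11) and -1.96 ± 0.18 in resistant cells (1.02e-10). With JQ1 it was -0.57 ± 0.15 in parental cells (adjusted p = 0.00206; -0.43 and 0.056 without the first parental DMSO library, and not called in limma on log2 FPKM, -0.41 to -0.63). The resistant value of -0.30 ± 0.14 was not called with TMM (adjusted p = 0.0795), but was with total counts (-0.49), mitochondrial scaling (-0.88), limma on log2 (TPM + 1) (-0.46) and only the libraries compared (-0.31). The difference between the lines was not called (0.27, 95% interval -0.14 to 0.69). In DMSO TGFB2 was higher in resistant cells by 0.56 ± 0.14 (adjusted p = 0.00205; 0.42 and 0.063 without the second parental DMSO library). This call was also lost with mitochondrial scaling (0.32), in limma on log2 FPKM (0.34 to 0.46) and in limma on log2 (TPM + 1) (0.41).

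TGFB3 stood at 2.58 and 2.76 CPM in parental DMSO and 2.58 and 2.75 in resistant DMSO, and at 0.761 to 1.58 in the 8 treated libraries, so that treated and DMSO libraries did not overlap. The fold changes were -1.38 ± 0.25 and -1.38 ± 0.24 with JQ1 (adjusted p = 3.42e-05 and 3.77e-05) and -1.46 ± 0.28 and -0.82 ± 0.27 with dBET6 (3.08e-05 and 0.00759) in parental and resistant cells. The deposited FPKM did not show this fall in parental dBET6 cells: 1.66 and 3.61 against 2.78 and 2.47 in DMSO, and none of the 4 falls was called by limma on log2 FPKM, and the resistant dBET6 fall was not called in DESeq2 (-0.64). Of the TGFB3 counts in parental dBET6 libraries, 7.69% (1 and 2 counts) went to a transcript of 210 bases, against none in parental DMSO. FPKM divides counts by transcript length, and the part of these few counts in the difference was not tested.

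BMP2 and BMP6, bone morphogenetic proteins that signal through SMAD1, SMAD5 and SMAD9, were both low in these cells. BMP2 stood at 12.7 and 13.2 CPM in parental DMSO, 7.69 and 8.02 in JQ1 and 2.38 and 2.23 in dBET6. In resistant cells it stood at 5.58 and 4.64 in DMSO, 2.34 and 1.87 in JQ1 and 0.962 and 1.75 in dBET6. It was the only member called lower in resistant cells in DMSO, with a log2 fold change of -1.34 ± 0.15 (adjusted p = 4.43e-08). JQ1 lowered it, with -0.73 ± 0.15 in parental (adjusted p = 0.00017; not called in limma on log2 (FPKM + 0.1), -0.70) and -1.28 ± 0.18 in resistant cells (8.91e-07), and dBET6 with -2.49 ± 0.18 (1.4e-12) and -1.90 ± 0.23 (2.12e-08). Each library with a compound lay below the DMSO libraries of its line. Neither difference between the lines in response was called (-0.56, 95% interval -1.03 to -0.09 and adjusted p = 0.159 for JQ1, and 0.59, -0.06 to 1.25 and 0.177 for dBET6).

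BMP6 was near the limit of detection, with 3 to 66 estimated counts per library. It stood at 0.415 and 0.342 CPM in parental DMSO, 0.700 and 0.980 in resistant DMSO, and 1.75 and 1.74 in resistant JQ1. The resistant JQ1 libraries were the highest of the 12. The rise with JQ1 in resistant cells was 1.06 ± 0.30 (adjusted p = 0.00547; 0.83 and 0.11 without the first resistant DMSO library), and it was not called with mitochondrial scaling (0.49), in DESeq2 (1.04, adjusted p = 0.114) or in unfiltered limma on log2 (FPKM + 0.1) (0.84). The parental value of 0.39 ± 0.39 was not called. Between the lines in DMSO the difference was 1.13 ± 0.36 (adjusted p = 0.0131), which lost its call without the second parental (0.99) or the second resistant DMSO library (0.87), with mitochondrial scaling (0.88), in DESeq2 (1.15, adjusted p = 0.125) and in unfiltered limma (0.75). BMP6 was lower with dBET6 than with JQ1 in both lines, at -1.31 ± 0.52 in parental (adjusted p = 0.0262) and -1.82 ± 0.40 in resistant cells (0.000183). The parental difference lost its call without the first parental JQ1 library (-1.09) or the first parental dBET6 library (-0.97), with only the libraries compared (-1.24), in DESeq2 (-1.19) and in unfiltered limma (-0.70). Against DMSO the dBET6 values of -0.92 ± 0.54 and -0.77 ± 0.42 were not called with TMM, but were with total counts (-1.55 and -1.83).

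BMP4, the ligand closest to BMP2, was almost absent outside dBET6. Its counts were 8 and 6 in parental dBET6 and 10 and 4 in resistant dBET6 libraries, 1 in 1 parental DMSO library and 0 in the other 7. The ratio of parental dBET6 to DMSO was 29.2 (95% exact interval 4.45 to 1236), or 18.8 (2.85 to 793) with total counts. In resistant cells 14 counts with dBET6 stood against 0 with DMSO, and the 95% exact interval of the ratio began at 9.95, or at 4.72 with total counts. Against JQ1 it began at 6.08 in parental and 8.15 in resistant cells, or at 4.23 and 4.42 with total counts. These intervals cover counting error only.

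GDF5, a ligand known for joint and cartilage development, had the largest falls with dBET6 of the 9 tested members. It stood at 47.2 and 48.2 CPM in parental DMSO, 6.44 and 7.17 in parental JQ1, and 0.666 and 0.673 in parental dBET6. In the resistant line it stood at 87.3 and 79.4 in DMSO, 25.9 and 29.2 in JQ1, and 1.79 and 2.49 in dBET6. The 6 groups did not overlap. The fall with JQ1 was -2.81 ± 0.11 in parental (adjusted p = 1.77e-17) and -1.60 ± 0.10 in resistant cells (2.54e-13), and with dBET6 -6.15 ± 0.17 (1.86e-21) and -5.27 ± 0.14 (1.22e-21). These 4 calls held under each alternative setting tried. The parental and resistant dBET6 groups held only 26.9 and 65.9 GDF5 counts in all. The SE of the 2 dBET6 falls are hence smaller than counting error alone. In DMSO GDF5 was higher in resistant cells by 0.81 ± 0.09 (adjusted p = 7.17e-08). The JQ1 fall was smaller in resistant cells by 1.21 ± 0.14 (adjusted p = 2.26e-06; 0.93 and 0.08 with mitochondrial scaling, 1.16 and 0.058 in limma on log2 (FPKM + 0.1)), so that resistant JQ1 cells held GDF5 at a mean of 27.5 CPM against 6.80 in parental JQ1 cells. For dBET6 the difference was 0.87 ± 0.30 (adjusted p = 0.0313). It lost its call without any of 4 single libraries (0.62 to 0.88 without parental dBET6 1 or 2, resistant dBET6 2 or resistant DMSO 2), with total counts (0.44), with mitochondrial scaling (0.58) and without the filter (0.80), and turned in limma on log2 (FPKM + 1) (-0.21) and log2 (TPM + 1) (-0.57).

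The remaining GDF5 counts did not come from the same annotated transcript in every group. GDF5 lies on the minus strand of chromosome 20 (GRCh38, 35433347 to 35454746), and the 2 annotated transcripts start 16503 bases apart, GDF5-201 at 35438243 and GDF5-202 at 35454746. GDF5-201 took 99.2% of all GDF5 counts: 2044 and 1970 in parental DMSO, 245.2 and 224.5 in parental JQ1, 0 and 0 in parental dBET6, and 19.1 and 28.3 in resistant dBET6. GDF5-202 ranged only from 0 to 18.8 counts per library and was above 0 in 9 of the 12, with 14.4 and 12.5 in parental dBET6. All counts assigned to GDF5 in parental dBET6 cells thus went to the transcript with the distal start. kallisto divides reads between overlapping transcripts by likelihood, so these few counts are less certain than their size shows. The span of GDF5 also overlaps that of GDF5OS on the other strand, and whether the 2 genes share exon sequence was not examined.

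**Figure D3:**
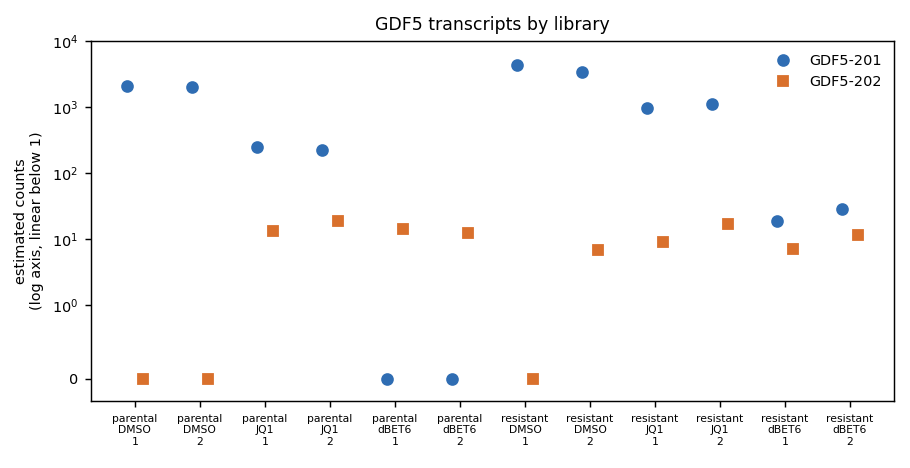
Estimated counts of the 2 annotated GDF5 transcripts in each library, on a log axis that is linear below 1. GDF5-201 falls from 2044 and 1970 in parental DMSO to 0 in both parental dBET6 libraries, while GDF5-202 stays at 18.8 or below in all 12.

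The promoter window that RefSeq (GRCh38.p14) gives for GDF5 is that of the distal start, and it is shown because the counts left in parental dBET6 cells were assigned to that start. It runs over chr20:35454700-35454999 on the minus strand, from 250 bases before the start site to 50 after it. It is printed 5′ to 3′ beside those of GDF15, LTBP2 and TGFB1. With TMM scaling GDF15 and LTBP2 were higher with dBET6 than with JQ1 in both lines (GDF15 in parental cells at -0.35 with mitochondrial scaling). INHBA was too, but its window, with 2 motif matches, is not printed. TGFB1 was the one tested member called higher with JQ1 in both lines. Capitals mark matches to 5 motifs searched on both strands. The AP-1 motif TGACTCA was in 4.95% of all 35116 promoter windows. The E-box CACGTG was in 7.26%. The core of the ATF4 composite site, TTGCATC, was in 2.4%. The SMAD box CAGACA was in 16.9%. The TATA box TATAAA was in 11.5%.
GDF5: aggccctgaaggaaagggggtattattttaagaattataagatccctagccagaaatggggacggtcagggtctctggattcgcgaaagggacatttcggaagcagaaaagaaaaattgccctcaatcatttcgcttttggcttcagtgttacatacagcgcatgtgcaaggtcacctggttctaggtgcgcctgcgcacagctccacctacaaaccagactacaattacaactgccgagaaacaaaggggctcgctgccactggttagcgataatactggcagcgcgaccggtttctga
GDF15: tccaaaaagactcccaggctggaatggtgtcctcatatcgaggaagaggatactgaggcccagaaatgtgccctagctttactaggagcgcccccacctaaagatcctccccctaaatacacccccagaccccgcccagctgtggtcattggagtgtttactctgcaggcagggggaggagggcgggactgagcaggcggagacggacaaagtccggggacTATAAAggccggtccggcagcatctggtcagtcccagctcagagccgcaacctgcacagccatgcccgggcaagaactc
LTBP2: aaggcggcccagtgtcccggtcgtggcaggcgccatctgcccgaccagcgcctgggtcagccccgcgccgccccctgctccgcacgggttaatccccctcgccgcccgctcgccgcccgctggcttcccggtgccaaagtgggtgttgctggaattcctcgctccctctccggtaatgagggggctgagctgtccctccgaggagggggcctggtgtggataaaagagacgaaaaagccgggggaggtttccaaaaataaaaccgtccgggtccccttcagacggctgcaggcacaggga
TGFB1: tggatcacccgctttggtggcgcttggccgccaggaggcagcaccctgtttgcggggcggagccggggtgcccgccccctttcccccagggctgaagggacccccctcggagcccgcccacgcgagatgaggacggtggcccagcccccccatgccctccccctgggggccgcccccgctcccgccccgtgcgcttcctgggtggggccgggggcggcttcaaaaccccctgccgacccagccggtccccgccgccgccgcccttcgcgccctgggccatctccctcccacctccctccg
The GDF15 window lies at chr19:18385908-18386207 on the plus strand, LTBP2 at chr14:74612188-74612487 on the minus strand and TGFB1 at chr19:41353873-41354172 on the minus strand. Of these 4 windows 1 held a match, a TATA box in GDF15 that begins 29 bases before the start site. Their GC content was 49.3% for GDF5, 59.3% for GDF15, 67% for LTBP2 and 77.3% for TGFB1, beside a median of 58.7% over all windows. Windows were found for 9 of the 10 members, 12 in all, and the TATA box was in 4 of the 12 (TGFB2, 1 of the pair for TGFB3, GDF15 and INHBA). The E-box was in 3 (TGFB2, the other TGFB3 window and 1 of 3 for BMP4) and the SMAD box in 3 (TGFB2, INHBA and the same BMP4 window), while the AP-1 and ATF4 letters were in none. A match is a description of letters and not a site of binding.

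GDF15 answered the compounds differently in the 2 lines. It stood at 13.2 and 16.3 CPM in parental DMSO, 5.76 and 4.63 in JQ1, and 11.8 and 10.6 in dBET6. In resistant cells it stood at 28.4 and 29.5 in DMSO, 16.5 and 18.4 in JQ1, and 84.4 and 73.8 in dBET6. No group overlapped another, and all 6 resistant libraries lay above all 6 parental ones. In DMSO the resistant level was higher by 0.98 ± 0.11 (adjusted p = 6.3e-08). JQ1 lowered GDF15, with -1.49 ± 0.13 in parental (adjusted p = 1.68e-10) and -0.73 ± 0.11 in resistant cells (4.3e-06), and the difference between the lines was 0.77 ± 0.17 (0.00528; 0.67 and 0.051 without the second resistant JQ1 library, 0.53 and 0.48 with mitochondrial scaling, and not called in limma on log2 FPKM or TPM, 0.60 to 0.78). dBET6 raised it by 1.45 ± 0.11 in resistant cells (adjusted p = 1.79e-12), a rise that became -0.62 with mitochondrial scaling and -0.46 on log2 (TPM + 1). In parental cells the dBET6 value was -0.40 ± 0.13 (adjusted p = 0.00571), which lost its call without the second parental DMSO library (-0.29), in DESeq2 (-0.27), in limma on log2 FPKM (-0.27 to -0.29) and with a mean of at least 10 CPM (-0.03). The difference between these 2 responses was 1.85 ± 0.17 (adjusted p = 4.67e-09), and this was called under every alternative tried, at 1.04 to 1.997.

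The stress genes known to rise alongside GDF15 were counted from a list of 16 targets of p53 and ATF4. dBET6 raised 9 and lowered 4 in parental and raised 10 and lowered 4 in resistant cells (37% and 39.3%, and 35.7% and 39.5%, of all genes; 7 and 9, and 7 and 8, with mitochondrial scaling), with medians of 0.74 and 1.76. CDKN1A, the cell cycle inhibitor p21, rose by 5.85 and 6.76, GADD45A, a growth arrest and DNA damage gene, by 3.50 and 5.41, and MDM2, which degrades p53, by 6.34 and 7.28. All 3 rises were at 1.73 or above with mitochondrial scaling. These 3 were named for the highest mean FPKM over all 12 libraries, a mean that their dBET6 levels raise (MDM2 averaged 12.3 FPKM in parental DMSO and 1136 in parental dBET6), so the size of their rises is partly set by the choice. In parental DMSO the transcription factors ATF4 (66.1 FPKM) and DDIT3 (47.7), named after their values were seen, were among the 3 highest of the list. ATF4 fell with dBET6 (-0.57 and -0.89), and DDIT3 was not called in parental cells (0.05) and rose in resistant cells (2.17; 0.11, not called, with mitochondrial scaling). TRIB3 and CHAC1, targets of ATF4 named in the same way, also fell with dBET6 (-3.93 and -1.60, and -1.91 and -1.99). ASNS, SESN2 and ATF3 of the same list, also named after their values were seen, stood higher with dBET6 in both lines with TMM scaling. In parental cells ASNS went from 10.43 and 10.27 CPM in DMSO to 21.07 and 20.92. SESN2 went from 32.25 and 38.46 to 491.2 and 439.2, and ATF3 from 7.24 and 7.12 to 62.87 and 57.58. Of the 16 genes, 6 responded more to dBET6 in resistant than in parental cells and 0 less (13.7% and 14.2% of all genes), but 5 more and 5 less with total counts. With JQ1 10 rose and 4 fell in parental and 11 rose and 2 fell in resistant cells (22.8% and 26.1%, and 20.8% and 23.1%, of all genes; 5 and 4, and 6 and 2, with mitochondrial scaling), whereas GDF15, which the list leaves out, fell with JQ1 in both.

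INHBA, whose product dimerises to activin A, was the tested member that differed most between the lines in DMSO. It stood at 0.162 and 0.294 CPM in parental DMSO against 2.20 and 2.22 in resistant DMSO, a difference of 3.27 ± 0.35 (adjusted p = 1.7e-08). In parental cells it stood at 0.125 and 0.177 in JQ1 and 0.761 and 0.466 in dBET6, and in resistant cells at 0.350 and 0.236 in JQ1 and 3.92 and 4.80 in dBET6. JQ1 took the resistant level down, with -2.90 ± 0.34 (adjusted p = 6.66e-08), to libraries that overlapped those of parental DMSO. In parental cells, where DMSO libraries held 7 and 12 counts, the value was -0.59 ± 0.53 (adjusted p = 0.38). The difference between the lines, -2.31 ± 0.68 (adjusted p = 0.0375), lost its call in 7 of the 12 fits that left out 1 library (-1.94 to -2.61), each of them a DMSO or JQ1 library. dBET6 values were 1.44 ± 0.45 in parental (adjusted p = 0.00564) and 0.98 ± 0.27 in resistant cells (0.00179). These became -0.34 and -1.08 with mitochondrial scaling, and the parental one lost its call without the first DMSO (1.01) or the first dBET6 library (0.99) and with total counts (0.80). The counts of INHBA include a transcript of 386 bases, with 1 count in 1 parental DMSO and 1 in 1 parental JQ1 library. Its summed TPM was 1.41 times the deposited FPKM as an average of per-library ratios. As a ratio of means, the measure used to leave genes out of list counts, it was 1.12.

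LTBP2, a component of elastic microfibrils, fell more with JQ1 than with dBET6, by a margin that depended on the scale. It stood at 47.6 and 50.3 CPM in parental DMSO, 5.71 and 5.22 in JQ1 and 33.9 and 29.1 in dBET6. In resistant cells it stood at 45.2 and 41.7 in DMSO, 3.96 and 4.02 in JQ1 and 25.1 and 24.4 in dBET6. The groups did not overlap, and the order DMSO, dBET6, JQ1 was the same in both lines. JQ1 lowered it, with -3.16 ± 0.11 in parental (adjusted p = 2.23e-18) and -3.44 ± 0.11 in resistant cells (7.17e-19). dBET6 lowered it, with -0.63 ± 0.10 (adjusted p = 1.17e-06; -0.27 and 0.22 in limma on log2 (FPKM + 0.1)) and -0.81 ± 0.10 (3.29e-08). The difference between the compounds at the same dose and time was 2.52 ± 0.11 in parental (adjusted p = 4.33e-17) and 2.63 ± 0.12 in resistant cells (4.81e-17), and was called under every alternative tried. Its size fell to 2.001 and 1.749 with total counts, 1.06 and 1.14 with mitochondrial scaling and 0.97 and 0.56 in limma on log2 (TPM + 1), and the fall with dBET6 itself was -2.42 and -2.88 with mitochondrial scaling. The resistant line did not differ detectably from the parental one, neither in DMSO (-0.17, 95% interval -0.36 to 0.02) nor in its response to JQ1 (-0.29, -0.61 to 0.04) or dBET6 (-0.18, -0.46 to 0.11). The transcript LTBP2-202, annotated as a target of nonsense-mediated decay, took 32.9% of LTBP2 counts in parental DMSO and 57.1% in parental dBET6, against 13.2% and 40.6% in resistant cells. LTBP2 was rebuilt at 0.924 of its deposited FPKM, as an average of per-library ratios.

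dBET6 and JQ1 share a BET ligand and were used at the same dose for the same time. In parental cells 3 of the 9 members were higher with dBET6 than with JQ1 and 4 lower (74.6% of all genes called, 36.2 higher and 38.4 lower), and in resistant cells 4 higher and 4 lower (74.2%, with 35.4 and 38.8). GDF15, INHBA and LTBP2 were higher with dBET6 in both lines, GDF15 by 1.10 ± 0.14 and 2.18 ± 0.11 and INHBA by 2.03 ± 0.50 and 3.88 ± 0.34. TGFB2, BMP2, BMP6 and GDF5 were lower in both lines, GDF5 at -3.33 ± 0.21 and -3.67 ± 0.15, TGFB2 at -1.86 ± 0.21 and -1.66 ± 0.18, and BMP2 at -1.77 ± 0.19 and -0.62 ± 0.26. The resistant BMP2 difference was called at an adjusted p of 0.0324 and lost its call without the first resistant dBET6 library (-0.31) or the first resistant JQ1 library (-0.49), with the size factors of DESeq2 (-0.42), in DESeq2 (-0.42), with only the libraries compared (-0.53) and in limma on log2 FPKM (-0.19 to -0.52). For TGFB1 the comparison in parental cells depended on the scale: it was not called with TMM (-0.05, 95% interval -0.25 to 0.15), but was lower with dBET6 with total counts (-0.57), with mitochondrial scaling (-1.53), in limma on log2 (TPM + 1) (-1.26) and without the first parental dBET6 library (-0.26), and higher with a mean of at least 10 CPM (0.27). TGFB1 was higher with dBET6 in resistant cells by 0.40 ± 0.10 (adjusted p = 0.00073), which became -0.49 with total counts and was not called without the filter (0.18). With mitochondrial scaling the counts became 1 higher and 6 lower in parental and 3 higher and 6 lower in resistant cells, and in parental cells GDF15 turned to -0.35 and INHBA lost its call (0.57).

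**Figure D4:**
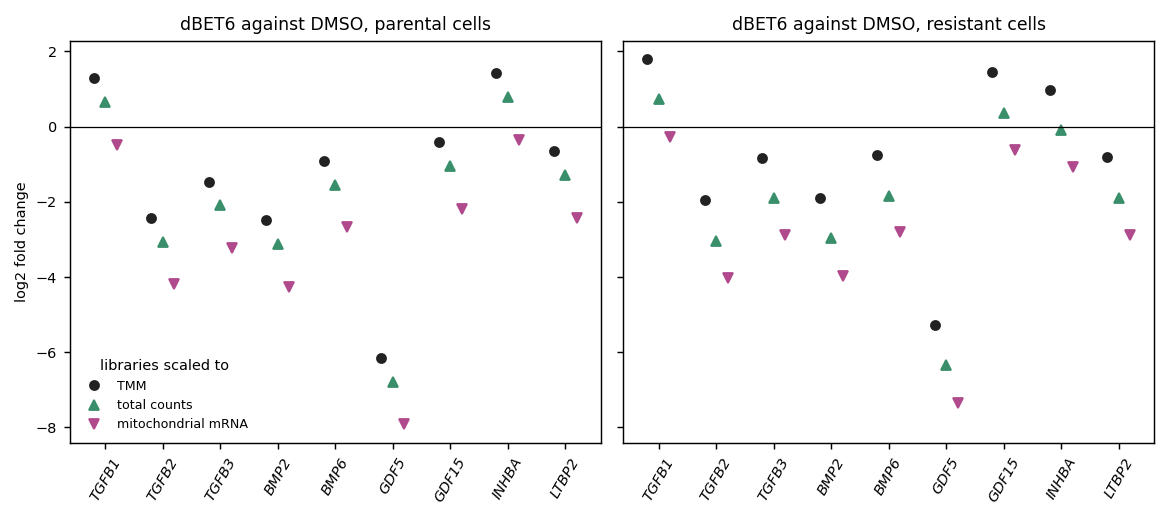
Log2 fold change of dBET6 against DMSO for each tested member with 3 scalings of the libraries, parental cells left and resistant cells right. GDF5, TGFB2, BMP2, TGFB3, BMP6 and LTBP2 are below 0 with each scaling, whereas TGFB1 and INHBA in both lines and GDF15 in resistant cells change sign between TMM and mitochondrial mRNA.

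Between the lines in DMSO 5 of the 9 members were higher in resistant cells and 1 was lower (38.5% of all genes called, 17.4 higher and 21.2 lower). The higher ones were INHBA, BMP6, GDF15, GDF5 and TGFB2 and the lower one BMP2. The difference in the JQ1 response was called for 3 of 9 members (6.5% of all genes, 3.62 higher and 2.88 lower) and that in the dBET6 response for 3 of 9 (27.9%), GDF5 and GDF15 being in both.

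Other ligands of the superfamily were counted from a list of 24, of which 12 passed the filter and 11 were rebuilt well enough to count. Of the 12, 8 reached the filter's CPM in fewer than 2 of the 8 DMSO and JQ1 libraries, 7 of them reaching it in 2 to 4 dBET6 libraries, so the filter favoured rises there and the counts are no support: 8 rose and 0 fell with dBET6 in parental cells. Of the 3 with the highest mean FPKM, GDF11, which patterns the embryonic axis, rose with JQ1 by 1.55 and 1.67 and with dBET6 by 0.73 and 1.76. The dBET6 values for GDF11 became -1.04 and -0.31 with mitochondrial scaling. AMH, the anti-Müllerian hormone, rose with dBET6 by 1.80 and 2.55 (0.01 and 0.48 with mitochondrial scaling) and was not called with JQ1 (-0.60 and -0.29). INHBE, which encodes an inhibin beta subunit, was at 0.0493 to 0.118 FPKM on average in DMSO and JQ1 groups and at 5.72 and 3.50 in dBET6.

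As background to the list counts below, dBET6 raised 37% and lowered 39.3% of all tested genes in the parental line and raised 35.7% and lowered 39.5% in the resistant line. For JQ1 the shares were 22.8% and 26.1% (parental) and 20.8% and 23.1% (resistant). Of 15 tested receptors and co-receptors 3 rose and 12 fell with dBET6 in parental and 3 rose and 8 fell in resistant cells, with medians of -0.82 and -0.49, beside -0.01 and -0.06 over all genes (1 of the 15, ACVRL1, named after its values were seen, passed the filter through dBET6 libraries; counts of 0 and 12, and 1 and 12, with mitochondrial scaling). TGFBR2, the type II receptor that binds TGF-beta, fell with dBET6 (-3.44 and -3.69) and with JQ1 (-0.97 and -0.90). TGFBR1, the type I receptor it activates, fell likewise (-1.90 and -2.02, and -0.60 and -0.79). ENG, a co-receptor of endothelial and mesenchymal cells, fell with JQ1 (-1.09 and -0.95). The BMP receptor BMPR2 and the activin receptor ACVR2A rose with JQ1 (0.64 and 0.58, and 0.90 and 0.76) and fell with dBET6 (-0.90 and -0.61, and -0.54 and -0.49). The JQ1 rise of BMPR2 was not called with mitochondrial scaling, and nor was that of ACVR2A in resistant cells. ACVR1, a type I receptor for BMPs and activins, fell with dBET6 in parental cells (-0.31) and was not called in resistant cells (0.17; -0.90 with total counts).

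Of 12 counted genes of latency, activation and processing, 5 rose and 7 fell with dBET6 in parental and 5 rose and 6 fell in resistant cells (0 and 11, and 0 and 10, with mitochondrial scaling). LTBP3, which binds latent TGF-beta to the matrix, fell with JQ1 (-0.50 and -0.57) and rose with dBET6 (1.11 and 1.57). FURIN, the protease that cuts the precursors, rose with dBET6 (0.74 and 0.97). Both dBET6 rises became falls with mitochondrial scaling, -0.68 and -0.49 for LTBP3 and -1.05 and -1.10 for FURIN. LTBP4 was rebuilt at too small a share of its FPKM to test, and its mean FPKM was 39.0 in parental DMSO, 24.2 in JQ1 and 84.4 in dBET6, and 26.3, 13.4 and 59.98 in resistant cells. From DMSO to dBET6 these means rose less in fold than the summed FPKM columns did.

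Of 8 counted secreted antagonists, 2 of which passed the filter through dBET6 libraries, 5 rose and 2 fell with dBET6 in parental and 2 rose and 3 fell in resistant cells (0 and 4 in each with mitochondrial scaling). FST, the activin antagonist follistatin, fell with each compound in both lines (-2.09 and -1.92 with JQ1, -1.92 and -2.11 with dBET6) and was higher in resistant cells in DMSO by 1.09. TWSG1, which modulates BMP binding, rose with JQ1 (0.50 and 0.44; 0.22 and -0.15, not called, with mitochondrial scaling) and dBET6 (0.93 and 1.03; -0.82 and -1.04 with mitochondrial scaling). FSTL3, a follistatin-like antagonist, rose with JQ1 (0.82 and 0.85; not called with mitochondrial scaling), while with dBET6 it rose in parental (0.54; -0.10 with total counts) and fell in resistant cells (-0.56). The BMP antagonist GREM1 could not be rebuilt from counts, and its deposited FPKM was 66.9 and 67.1 in parental DMSO against 176 and 161.5 in resistant DMSO. With dBET6 it was 29.3 and 30.5 in parental and 57.4 and 62.1 in resistant cells, below the DMSO libraries of each line. NOG stood at 0.0499 FPKM or less in all 12 libraries.

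Among SMAD transducers and co-factors, of 14 genes with dBET6 2 rose and 10 fell in parental and 1 rose and 9 fell in resistant cells (1 and 13, and 0 and 13, with mitochondrial scaling), with medians of -1.36 and -1.02. TGIF1, a co-repressor of SMAD2 and SMAD3, fell with dBET6 (-1.40 and -1.69). SMAD2 fell in parental cells (-0.45) and was not called in resistant cells (0.21; -0.87 with total counts). SKIL, a SMAD co-repressor, was not called in either (0.09 and 0.17; -0.55 and -0.91 with total counts, both called).

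Of 17 counted target genes of TGF-beta and BMP, 1 of which passed the filter through dBET6 libraries, JQ1 raised 7 and lowered 6 in parental and raised 3 and lowered 5 in resistant cells, and dBET6 raised 8 and lowered 7, and raised 10 and lowered 5 (3 and 12, and 3 and 10, with mitochondrial scaling). TGFBI, a matrix protein named for its induction by TGF-beta, rose with dBET6 by 1.27 and 1.52 (-0.51 and -0.54 with mitochondrial scaling) and was lower in resistant cells in DMSO (-1.55). FN1, fibronectin, fell with JQ1 (-0.42 and -0.67) and rose with dBET6 by 0.44 and 0.79, which became -0.20 and -0.29 with total counts. In DMSO 1 of the 17 targets was higher and 11 were lower in the resistant line, beside 17.4% and 21.2% of all genes.

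**Figure D5:**
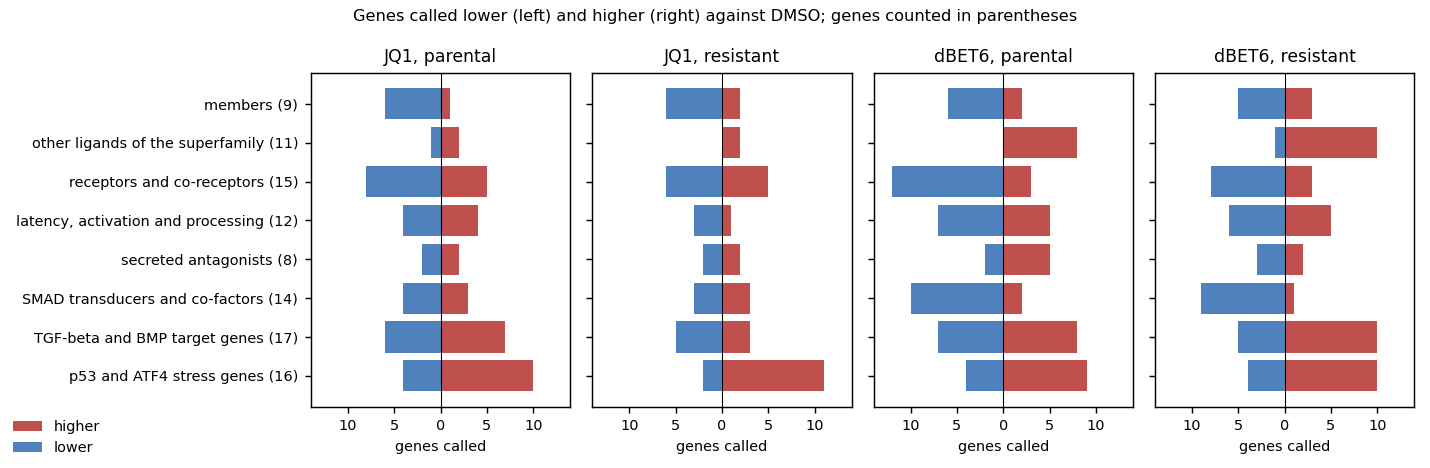
Number of genes called lower (left of 0) and higher (right of 0) against DMSO in each list, for both compounds and both lines, with TMM scaling; the number counted is in parentheses. With dBET6 receptors and SMAD genes lie mostly to the left, and most of the other ligands passed the filter only through dBET6 libraries.

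The genes whose profile over the 12 libraries was most like that of each member were sought among protein-coding genes with a mean of at least 10 CPM, by the root mean square difference of centred log2 CPM. For TGFB1 these were DRAP1, FAM89B and RETSAT, at 0.125 to 0.139, against a spread of 0.716 of TGFB1 itself. For TGFB2 they were SSX2IP, PAIP1 and PPFIBP1 (0.148 to 0.190, spread 1.03), and for TGFB3 SMOC1, C15orf52 and ADCY8 (0.210 to 0.213, spread 0.631). BMP2 was nearest to DCK, GSE1 and TNFRSF1B (0.325 to 0.352, spread 1.16) and BMP6 to DPY19L3, LMBRD2 and PCCA (0.325 to 0.364, spread 0.9003). For GDF5 DUSP6, a phosphatase of the ERK kinases, stood nearest at 0.542, followed by TBX15 and NDP (0.734 and 0.742), against a spread of 2.45. GDF15 was nearest to CORO2B, ANKRD29 and ADAMTS16 (0.395 to 0.453, spread 1.21), INHBA to IGFBP4, PLXDC1 and LCP1 (0.411 to 0.613, spread 1.63), and LTBP2 to KIAA1644, TRIM22 and SPOCD1 (0.314 to 0.361, spread 1.42). No member was among the 3 nearest of another, but only TGFB1, GDF5, GDF15 and LTBP2 had a mean high enough to be candidates. TGFB2, TGFB3, BMP2, BMP6 and INHBA could not be found as neighbours, so their likeness to other members was not examined.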

How the data were processed

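PolyA RNA libraries of 2 U87-MG lines under 3 treatments, 2 per group, were analysed. The deposited estimated counts and TPM per transcript are kallisto's, per the file headers and the submitters' processing notes, and are not normalized between libraries. The deposited FPKM table per gene was made by the authors with kallisto and DESeq2 on hg19, per the submitters' processing notes; how is not given in the sources used here, nor are versions. Transcripts were paired with genes through GENCODE 29 (GRCh38), newer than the files: 95% to 96.3% of counts were paired, and of 10511 genes above 1 FPKM in every library 79.7% of summed TPM lay within 1% of FPKM, after a factor per library, and 6.11% below 0.8. Coordinates are those of GRCh38.

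Counts were summed per gene and rounded. Genes kept by filterByExpr (19093) went through TMM scaling and edgeR's robust quasi-likelihood test (4.0.16, R 4.3.3). The fit took all 12 libraries, left 6 residual degrees of freedom and called genes at a Benjamini-Hochberg adjusted p under 0.05 in each of 9 comparisons. Intervals cover 95%. The biological coefficient of variation was 7.88%; replicates correlated across genes at 0.982 to 0.994 (genes are not independent replicates) and differed by more than counting noise (chi-square over its degrees of freedom 4.79 to 13.8).

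Members and lists were chosen with earlier results of these data known. Named were all members, the 3 genes of each list with the highest mean FPKM, TGFBR1, TGFBR2, BMPR2, ACVR2A, FST, NOG and GREM1, and the 3 genes most like each member (log2 CPM, prior count 2). The mean over all libraries favours list genes that are high with dBET6. One gene that this rule names is not reported here. Counts of BMP4 were also scaled to total counts, chosen after seeing the data. List genes whose mean summed TPM lay outside 0.8 to 1.25 times the mean FPKM, after the factor per library, were left out of list counts. This choice was made after seeing the data. Alternatives were size factors of DESeq2 in edgeR, total-count scaling, scaling to mitochondrially encoded mRNA, DESeq2 (1.42.0), no filter, a mean of at least 10 CPM, limma (3.58.1) on log2 FPKM (pseudocounts 1 and 0.1, mean of at least 1, and no filter) and on log2 TPM (pseudocount 1), only the libraries compared, a replicate block, and leaving out each library. The test was also run on simulated counts in which few genes changed, up and down alike. That run cannot speak to the scaling of dBET6 libraries, where most genes were called. Promoter windows are RefSeq's (GRCh38.p14).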

Additional observations from a re-analysis of the deposited data

Results flagged for a closer look

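These 6 responses differed between the parental and the resistant line by edgeR's interaction test over 19093 genes, each given as the resistant minus the parental log2 fold change. For JQ1 they were GDF5 (1.21 ± 0.14, adjusted p = 2.26e-06), GDF15 (0.77 ± 0.17, 0.00528) and INHBA (-2.31 ± 0.68, 0.0375). For dBET6 they were GDF15 (1.85 ± 0.17, adjusted p = 4.67e-09), TGFB1 (0.51 ± 0.14, 0.00691) and GDF5 (0.87 ± 0.30, 0.0313). GDF15 with dBET6 is the one in which the lines moved in opposite directions with TMM scaling.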

How the results depend on the processing

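The genes called were 9341 for JQ1 in parental cells, 14573 for dBET6 in parental cells, 8391 for JQ1 in resistant cells, 14355 for dBET6 in resistant cells, 7357 for the lines in DMSO, 14239 for dBET6 against JQ1 in parental cells, 14168 for dBET6 against JQ1 in resistant cells, 1241 for the JQ1 response difference and 5333 for the dBET6 response difference, and the members called 7 for JQ1 in parental cells, 8 for dBET6 in parental cells, 8 for JQ1 in resistant cells, 8 for dBET6 in resistant cells, 6 for the lines in DMSO, 7 for dBET6 against JQ1 in parental cells, 8 for dBET6 against JQ1 in resistant cells, 3 for the JQ1 response difference and 3 for the dBET6 response difference. The settings that moved these by over 1.5 times follow. With a mean of at least 10 CPM the genes called were 5835 for JQ1 in parental cells, 7730 for dBET6 in parental cells, 5548 for JQ1 in resistant cells, 7869 for dBET6 in resistant cells, 4620 for the lines in DMSO, 7711 for dBET6 against JQ1 in parental cells and 7889 for dBET6 against JQ1 in resistant cells. The members called with it were 4 for JQ1 in parental cells, 3 for dBET6 in parental cells, 4 for JQ1 in resistant cells, 4 for dBET6 in resistant cells, 2 for the lines in DMSO, 4 for dBET6 against JQ1 in parental cells and 4 for dBET6 against JQ1 in resistant cells. With limma on log2 (FPKM + 1) the genes called were 5553 for JQ1 in resistant cells, 4017 for the lines in DMSO, 306 for the JQ1 response difference and 3528 for the dBET6 response difference. The members called with it were 4 for dBET6 in parental cells, 5 for JQ1 in resistant cells, 3 for the lines in DMSO, 5 for dBET6 against JQ1 in resistant cells and 1 for the JQ1 response difference. With limma on log2 (FPKM + 0.1) the genes called were 6059 for JQ1 in parental cells, 5317 for JQ1 in resistant cells, 3814 for the lines in DMSO, 232 for the JQ1 response difference and 3299 for the dBET6 response difference. The members called with it were 4 for JQ1 in parental cells, 4 for dBET6 in parental cells, 5 for JQ1 in resistant cells, 3 for the lines in DMSO, 5 for dBET6 against JQ1 in resistant cells and 0 for the JQ1 response difference. With limma on log2 (FPKM + 0.1) and no filter the genes called were 5620 for JQ1 in parental cells, 4593 for JQ1 in resistant cells, 3564 for the lines in DMSO, 294 for the JQ1 response difference and 3086 for the dBET6 response difference. The members called with it were 4 for JQ1 in parental cells, 4 for dBET6 in parental cells, 0 for the JQ1 response difference and 1 for the dBET6 response difference. With limma on log2 (TPM + 1) the genes called were 4556 for the lines in DMSO and 383 for the JQ1 response difference. The members called with it were 3 for the lines in DMSO and 1 for the JQ1 response difference. With mitochondrial scaling the genes called were 335 for the JQ1 response difference and 2727 for the dBET6 response difference. The members called with it were 1 for the JQ1 response difference and 1 for the dBET6 response difference. With a mean of at least 10 CPM only 8853 genes and 4 members were tested. Leaving out 1 library gave 548 to 1493 genes and 1 to 3 members for the JQ1 response difference, the members falling to 1 without the second resistant JQ1 library; the genes fell by over 1.5 times without any of 6 single DMSO or JQ1 libraries. Directions turned as log2 values under the setting in parentheses. TGFB1, dBET6 in parental cells, turned to -0.49 (mitochondrial scaling) and -0.11 (limma on log2 (TPM + 1)). INHBA, dBET6 in parental cells, turned to -0.34 (mitochondrial scaling). TGFB1, dBET6 in resistant cells, turned to -0.26 (mitochondrial scaling) and -0.056 (limma on log2 (TPM + 1)). GDF15, dBET6 in resistant cells, turned to -0.62 (mitochondrial scaling) and -0.46 (limma on log2 (TPM + 1)). INHBA, dBET6 in resistant cells, turned to -0.096 (total counts) and -1.08 (mitochondrial scaling). TGFB1, dBET6 against JQ1 in parental cells, turned to 0.077 (DESeq2's size factors), 0.27 (a mean of at least 10 CPM), 0.020 (only the libraries compared), 0.077 (DESeq2) and 0.077 (without parental dBET6 library 2). TGFB3, dBET6 against JQ1 in parental cells, turned to 0.046 (DESeq2's size factors), 0.37 (limma on log2 (FPKM + 1)), 0.50 (limma on log2 (FPKM + 0.1)), 0.50 (unfiltered limma on log2 (FPKM + 0.1)), 0.051 (DESeq2) and 0.17 (without parental dBET6 library 1). GDF15, dBET6 against JQ1 in parental cells, turned to -0.35 (mitochondrial scaling). TGFB1, dBET6 against JQ1 in resistant cells, turned to -0.49 (total counts), -1.10 (mitochondrial scaling) and -1.18 (limma on log2 (TPM + 1)). TGFB3, dBET6 against JQ1 in resistant cells, turned to -0.32 (total counts), -0.93 (mitochondrial scaling) and -0.72 (limma on log2 (TPM + 1)). GDF5, the dBET6 response difference, turned to -0.21 (limma on log2 (FPKM + 1)) and -0.57 (limma on log2 (TPM + 1)). The causes were not tested. The replicate block called 7, 8, 8, 8, 6, 7, 8, 3 and 3 members in the order above, the same numbers as without it, and changed no call of a member. The numbers were not taken to pair the libraries: deviations correlated between groups at -0.33 to 0.28, above 0.1 in 4 of 15 pairs. Over single members and the settings other than leaving out a library, 600 values kept direction and call, 70 lost the call, 13 gained it and 27 turned; with 1 library left out these were 765, 24, 1 and 2. BMP4, BMP6 and INHBA are limited by depth.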
